A study of Mus musculus with 6 samples.

Results

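The signal intensities of 10 genes that encode parts of the desmosome were compared in aortas of untreated ApoE-/-, vitamin E-treated ApoE-/- and B6 mice. The genes are Dsp, Pkp1, Pkp2, Pkp3, Dsg2, Dsg3, Dsc2, Dsc3, Jup and Perp, and their probe sets were chosen by the gene symbol in the annotation of the array, with no use of measured values. Of these 10 genes, 9 had at least 1 probe set, with 22 probe sets in all among the 45101 of the array, and Dsg3, a desmosomal cadherin of stratified epithelium, had none and is not analysed here. A total of 13 probe sets, which cover all 9 genes, reached a group mean of 100 or more in 1 of the groups and were tested. A gene is represented below by its probe set with the highest mean over the 6 arrays.

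The untreated ApoE-/- mice lack apolipoprotein E on a C57BL/6J background and had received no drug, the vitamin E-treated ApoE-/- mice had the same genotype and received 2000 IU of vitamin E per kg of diet for 7 months, and the B6 mice were non-transgenic C57BL/6J controls. All groups were given a standard chow with fat and cholesterol and no added tocopherol acetate, apart from the vitamin E of the treated group. They entered the study at 4 to 6 weeks of age and were 32 to 34 weeks old when the aortas, freed of fat, were frozen. Each group has 2 arrays, and each array carries the RNA of 3 pooled aortas, so that the spread between animals is not measured. Captopril-treated mice are not analysed here. The values are whole-vessel signal intensities, in which fewer cells of a type and less RNA per cell cannot be told apart.

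Desmosomes are spot-like junctions that tie the intermediate filaments of neighbouring cells together and give mechanical strength to epithelia and to the heart. Desmogleins (Dsg) and desmocollins (Dsc) are the cadherins that meet between the cells, the armadillo proteins plakoglobin (Jup) and plakophilins (Pkp) bind their tails, and desmoplakin (Dsp) links the plaque to keratin or desmin filaments. Dsg2, Dsc2 and Pkp2 are the isoforms of heart and simple epithelium, Dsg3, Dsc3, Pkp1, Pkp3 and the tetraspan protein Perp are best known from stratified epithelium, and Dsp and Jup are used by both. Endothelium and smooth muscle of the vessel wall do not form classical desmosomes.

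Smooth muscle genes, which are not particular to the aorta, were measured on all arrays. Their 7 markers summed to a signal intensity of 15664 to 19176 per array, with Acta2 at 8791 to 11061. Markers of heart, oesophagus, liver and lung were measured on the same arrays. The paper places stratified epithelium genes, with Sprr3 of the oesophageal list among them, in the aortic intima. By immunohistology it found Sprr3 protein in the intima and the media next to it. The summed signal intensity of 10 cardiac muscle markers was 31147 and 31597 at the lowest and highest B6 array, 56058 and 56413 in untreated ApoE-/- and 31650 and 35416 in vitamin E-treated ApoE-/- aortas, and no marker was under 100 on all arrays. Sums are over all markers of a list with a probe set. The 9 such markers of differentiated oesophageal epithelium, of which 7 were tested, summed to 26907 and 27287 in B6, 14340 and 14412 in untreated and 27526 and 31000 in vitamin E-treated aortas, with Ivl and Rhcg under 100 on all arrays. Liver markers, 8 in number, summed to 24397 and 24721 in B6, 1355 and 1356 in untreated and 2557 and 2615 in vitamin E-treated aortas, and no marker was under 100 on all arrays. Lung and airway markers, also 8, summed to 16202 and 16865 in B6, 13306 and 13721 in untreated and 10282 and 10407 in vitamin E-treated aortas, with Cldn18 and Foxj1 under 100 on all arrays. The mean signal intensity was 305 to 319 per array and replicates correlated at r of 0.984 to 0.992 across probe sets. The 3′/5′ ratio of Gapdh was 1.03 to 1.06 in untreated ApoE-/-, 1.15 to 1.24 in vitamin E-treated ApoE-/- and 1.34 to 1.35 in B6 arrays, and the 4 poly-A labelling controls were 2.62-fold to 4.11-fold higher on B6 than on untreated arrays. Labelling and genotype thus cannot be told apart in comparisons with B6. The vitamin E-treated arrays were entered into the archive later than the other 4, and no source used here says whether they were hybridized together, so that a batch and the treatment cannot be told apart either. The disrupted gene, Apoe, had a signal intensity of 40.5 to 93.2 in the 4 ApoE-/- arrays and of 5209 and 5432 in B6.

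In the comparison of untreated ApoE-/- with B6 aortas, which asks how the atherosclerotic vessel differs from the healthy one, Dsg2, Jup, Pkp2 and Pkp3 were higher and Pkp1, Dsp and Perp were lower. These are 4 genes higher, 3 lower and 2 not called of 9, beside 21.7% of all 17909 tested probe sets called higher and 19.1% called lower. Vitamin E-treated compared with untreated ApoE-/- aortas, the comparison for the effect of treatment, had Pkp1, Pkp3, Dsp and Perp higher and Dsg2 and Pkp2 lower, with 3 genes not called, beside 8.52% of probe sets called higher and 6.99% called lower. Vitamin E-treated ApoE-/- compared with B6 aortas, which shows how treated aortas differed from the control, had Dsc3, Jup, Pkp1 and Pkp3 higher and Pkp2 lower. In this comparison 4 genes were not called, beside 21.9% of probe sets called higher and 19.2% called lower. Jup and Pkp3 were also higher than B6 in untreated aortas, whereas Pkp1 and Pkp2 were called the opposite way there and Dsc3 was not called. The median log2 fold changes of the 9 genes were 0.19, 0.32 and 0.33 in this order, beside 0.03, 0.0035 and 0.02 over all tested probe sets. A call is an adjusted p under 0.05 from limma. Statements below that groups did or did not overlap only describe the arrays. How often groups did not overlap over all probe sets was not counted. The 3 comparisons share arrays pairwise, so they are not independent of each other.

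**Figure D1:**
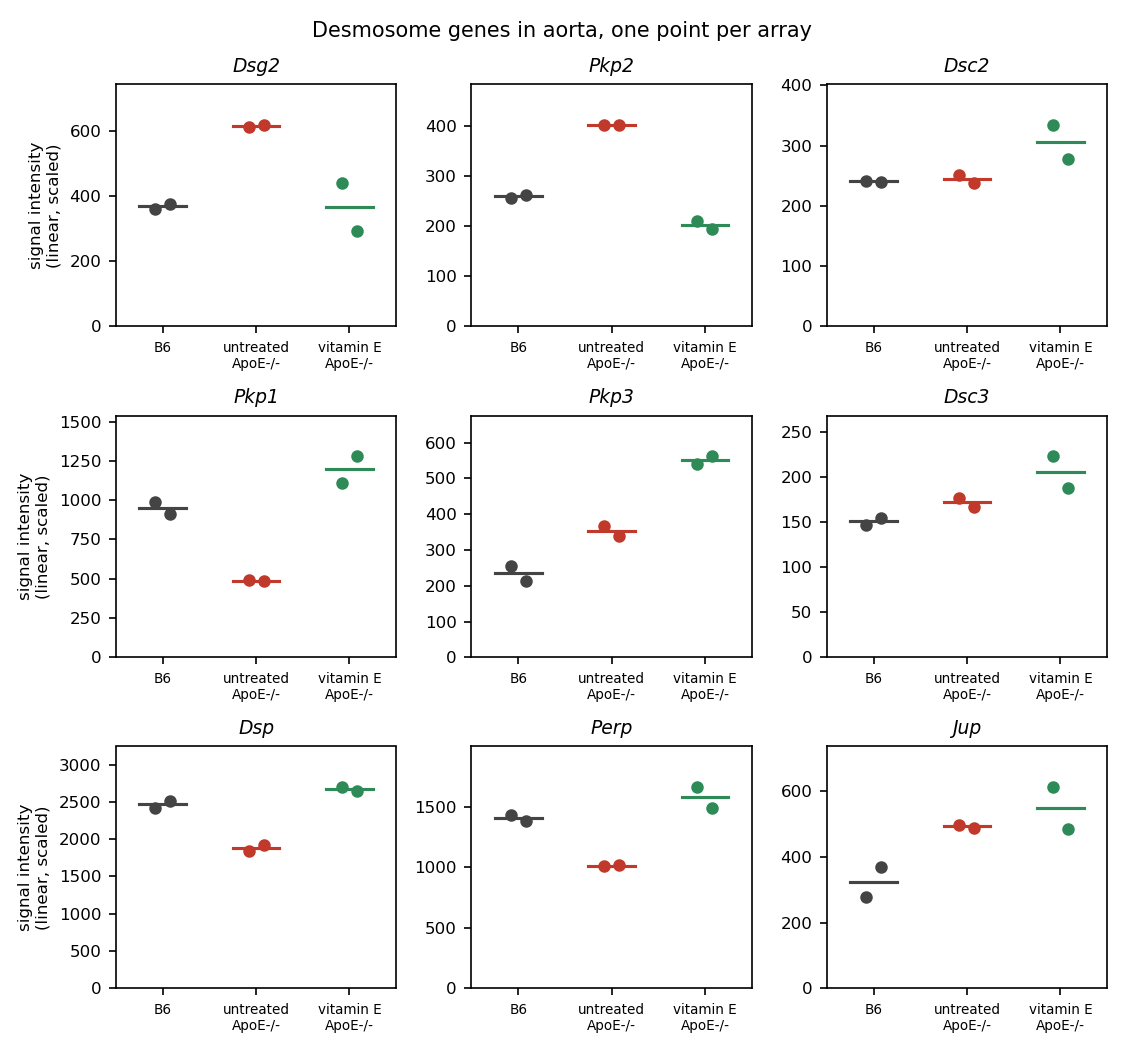
Signal intensity (linear scale, from 0) of the representative probe set of 9 desmosome genes, with 1 point per array and a bar at the mean of the 2 arrays of a group. Dsg2 and Pkp2 are highest in untreated ApoE-/- aortas, Pkp1, Dsp and Perp are lowest there, and Pkp3 rises from 213 and 256 in B6 to 539 and 563 in vitamin E-treated aortas.

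Among the cadherins, Dsg2, the desmoglein of heart and simple epithelium, had signal intensities of 359 and 377 in B6, 612 and 619 in untreated ApoE-/- and 441 and 294 in vitamin E-treated ApoE-/- aortas. Both untreated arrays were above all other arrays, while the vitamin E-treated arrays lay on either side of B6. Dsg2 was 1.67-fold higher in the untreated ApoE-/- group than in B6 (log2 fold change 0.74, SE 0.17, adjusted p = 0.011) and 1.71-fold lower after vitamin E (−0.77, SE 0.17, adjusted p = 0.024), and the log2 difference between vitamin E-treated and B6 aortas was −0.03 (adjusted p = 0.90). The untreated-to-B6 call was lost without B6 replicate 1 (adjusted p = 0.075), B6 replicate 2 (0.056), untreated replicate 1 (0.053) or untreated replicate 2 (0.058), and the call after vitamin E was lost without B6 replicate 1 (0.059), B6 replicate 2 (0.057), untreated replicate 1 (0.11) or untreated replicate 2 (0.12). The last comparison passed without vitamin E replicate 1 (log2 fold change −0.32, adjusted p = 0.025) and, in the opposite direction, without vitamin E replicate 2 (0.26, adjusted p = 0.046).

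The other tested probe set of Dsg2 had 159 and 176 in B6, 232 and 212 in untreated and 171 and 179 in vitamin E-treated aortas. It was also highest in the untreated arrays, with a log2 fold change of 0.41 against B6 (adjusted p = 0.030) and of −0.34 after vitamin E (adjusted p = 0.098). The call against B6 was lost without B6 replicate 1 (0.16), B6 replicate 2 (0.066), untreated replicate 1 (0.16) or untreated replicate 2 (0.073), and with quantile normalization (0.055) or median centring (0.070). The remaining 4 probe sets of Dsg2 were under the filter, and of these the brightest had 32.8 and 35.8 in B6, 56.6 and 54.8 in untreated and 34.2 and 24.4 in vitamin E-treated aortas.

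Neither desmocollin among the members, Dsc2 and Dsc3, was called between untreated ApoE-/- and B6 or after vitamin E. Dsc2, the partner of Dsg2 in the heart, had 242 and 240 in B6, 251 and 238 in untreated and 335 and 277 in vitamin E-treated aortas. B6 and untreated arrays overlapped, with a log2 difference of 0.02 (SE 0.12, adjusted p = 0.90), and both vitamin E-treated arrays were higher than the other 4. The difference was 0.32 on the log2 scale against untreated (adjusted p = 0.11) and 0.34 against B6 (adjusted p = 0.052), and it passed without vitamin E replicate 2 (0.45, adjusted p = 0.040, and 0.47, adjusted p = 0.016). Against B6 it also passed without a floor (adjusted p = 0.049). A dimmer probe set of Dsc2, at 52.2 to 110 over the 6 arrays, was called in no comparison.

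Dsc3, the desmocollin of the basal layers of stratified epithelium, had 147 and 154 in B6, 177 and 167 in untreated and 224 and 188 in vitamin E-treated aortas. The 3 groups did not overlap, and the order was B6, untreated, vitamin E-treated. Neither step passed the test (log2 difference 0.19, adjusted p = 0.28, and 0.25, adjusted p = 0.23), and vitamin E-treated against B6 aortas did (0.44, SE 0.13, adjusted p = 0.031). This last call was lost in 5 of 6 fits with 1 array left out, namely without B6 replicate 1 (adjusted p = 0.14), B6 replicate 2 (0.095), either untreated replicate (0.052) or vitamin E replicate 1 (0.11). It was also lost with the arrays centred on their medians (0.29, adjusted p = 0.13), with quantile normalization (0.35, adjusted p = 0.063) and in a fit of only these groups (adjusted p = 0.051).

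Of the armadillo proteins, Pkp1, the plakophilin of the suprabasal layers of stratified epithelium, had the largest difference of the 9 genes between untreated ApoE-/- and B6 aortas. Its signal intensities were 990 and 911 in B6, 490 and 485 in untreated and 1112 and 1283 in vitamin E-treated aortas. Untreated arrays were lowest, vitamin E-treated arrays were highest, and no groups overlapped. Pkp1 was 1.95-fold lower in the untreated ApoE-/- group than in B6 (log2 fold change −0.96, SE 0.09, adjusted p = 0.00018) and 2.45-fold higher after vitamin E (1.29, SE 0.09, adjusted p = 0.0002), and both calls were kept in each fit with 1 array left out. Vitamin E-treated aortas were 1.26-fold above B6 (0.33, adjusted p = 0.019). That call was lost without B6 replicate 1 (adjusted p = 0.052), B6 replicate 2 (0.13) or vitamin E replicate 2 (0.055), and with median centring (0.18, adjusted p = 0.17).

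Pkp2, the plakophilin of the heart and of simple epithelium, ran the other way. It had 257 and 263 in B6, 402 and 402 in untreated and 210 and 194 in vitamin E-treated aortas. Untreated arrays were highest and vitamin E-treated arrays lowest, without overlap. Pkp2 was 1.55-fold higher in the untreated ApoE-/- group than in B6 (log2 fold change 0.63, SE 0.09, adjusted p = 0.0018) and 2.0-fold lower after vitamin E (−1.0, SE 0.09, adjusted p = 0.00084), and both calls were kept in each fit with 1 array left out. It ended 1.29-fold below B6 (−0.37, adjusted p = 0.017), a call that was lost without B6 replicate 1 (adjusted p = 0.074) or B6 replicate 2 (0.090). A second probe set of Pkp2 had 103 and 100 in B6, 139 and 135 in untreated and 73.1 and 83.7 in vitamin E-treated aortas, with the same order of groups and log2 fold changes of 0.43 (adjusted p = 0.055), −0.80 (adjusted p = 0.014) and −0.38 (adjusted p = 0.080). Its call after vitamin E was lost without untreated replicate 1 (0.092) or 2 (0.083). Its difference of untreated from B6 aortas passed without vitamin E replicate 1 (0.041) or 2 (0.042), with a floor of 50 (0.045), without a trend (0.018) and in a fit of only these groups (0.035), and that of treated from B6 aortas with quantile normalization (−0.51, adjusted p = 0.030), median centring (−0.53, adjusted p = 0.027) or no trend (0.026).

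Pkp3, which occurs in most layers of stratified epithelium and in many simple epithelia, followed neither of the other plakophilins. It had 256 and 213 in B6, 368 and 338 in untreated and 539 and 563 in vitamin E-treated aortas. The groups did not overlap and rose in that order. Pkp3 was 1.51-fold higher in the untreated ApoE-/- group than in B6 (log2 fold change 0.59, SE 0.11, adjusted p = 0.0048), a further 1.56-fold higher after vitamin E (0.64, SE 0.11, adjusted p = 0.010) and 2.36-fold above B6 in the treated aortas (1.24, adjusted p = 0.0002). The call after vitamin E was lost without untreated replicate 2 (0.58, adjusted p = 0.079). A second probe set, under the filter, had 24.4 and 22.3 in B6, 21.9 and 28.5 in untreated and 65.3 and 59.5 in vitamin E-treated aortas, so that it was highest in the treated arrays but did not separate the other groups.

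Relative to their B6 means, the ratio of Pkp1 to Pkp2, the stratified over the heart plakophilin, was −1.58 and −1.60 on the log2 scale in untreated and 0.54 and 0.86 in vitamin E-treated aortas. The ratio was thus below B6 in both untreated arrays and above it in both treated arrays. The ratio of Pkp1 to Pkp3, both of stratified epithelium, was −1.61 and −1.50 in untreated and −0.98 and −0.84 in vitamin E-treated aortas, below B6 on all 4 ApoE-/- arrays. These ratios are descriptions, and with 2 arrays against 2 an exact permutation test cannot give a two-sided p under 0.333.

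Jup, plakoglobin, the armadillo protein shared by desmosomes and adherens junctions, had 277 and 370 in B6, 497 and 489 in untreated and 613 and 485 in vitamin E-treated aortas. All 4 ApoE-/- arrays were above both B6 arrays, and the untreated and treated arrays overlapped. Jup was 1.54-fold higher in the untreated ApoE-/- group than in B6 (log2 fold change 0.62, SE 0.16, adjusted p = 0.017) and 1.71-fold higher than B6 after vitamin E (0.77, adjusted p = 0.0072), with a difference of 0.14 (adjusted p = 0.57) between the ApoE-/- groups. The call of untreated against B6 aortas was lost without B6 replicate 1 (0.42, adjusted p = 0.10), untreated replicate 1 (0.61, adjusted p = 0.075) or untreated replicate 2 (0.64, adjusted p = 0.071).

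Dsp, desmoplakin, the plakin that every desmosome needs, had 2415 and 2518 in B6, 1838 and 1928 in untreated and 2702 and 2647 in vitamin E-treated aortas. Untreated arrays were lowest and no groups overlapped. Dsp was 1.31-fold lower in the untreated ApoE-/- group than in B6 (log2 fold change −0.39, SE 0.06, adjusted p = 0.0023) and 1.42-fold higher after vitamin E (0.51, SE 0.06, adjusted p = 0.0025), and both calls were kept in each fit with 1 array left out. Treated and B6 aortas differed by 0.12 (adjusted p = 0.16). This was 0.20 and passed with quantile normalization (adjusted p = 0.026), and −0.04 with the arrays centred on their medians (adjusted p = 0.72). The other tested probe set of Dsp had 1799 and 1825 in B6, 1651 and 1674 in untreated and 2584 and 2110 in vitamin E-treated aortas. There the difference between untreated and B6 aortas was −0.12 (adjusted p = 0.33), while vitamin E-treated aortas were higher than untreated (0.49, adjusted p = 0.015) and B6 aortas (0.37, adjusted p = 0.018). The first of these calls was lost without untreated replicate 1 (0.096) or 2 (0.092), and the second without B6 replicate 1 (0.10) or 2 (0.087) and with median centring (0.21, adjusted p = 0.12). The difference between untreated and B6 aortas passed without vitamin E replicate 1 (0.044) or 2 (0.042) and in a fit of only these groups (0.046). The probe sets of Dsp thus differ in which comparisons they passed.

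The representative probe sets of Dsp and Jup moved in opposite directions between untreated and B6 aortas, although both proteins serve heart and epithelium. Dsp and Jup are also the members for which upstream sequences were obtained, and these sequences are given here. They are the 250 bases before the annotated RefSeq transcription start, 5′ to 3′ on the strand of the gene, in mouse assembly GRCm38.p6, at chr13:38151044-38151293 (plus strand) for Dsp and chr11:100397791-100398040 (minus strand) for Jup, with GC boxes (GGGCGG or, on the other strand, CCGCCC) in capitals.
Dsp: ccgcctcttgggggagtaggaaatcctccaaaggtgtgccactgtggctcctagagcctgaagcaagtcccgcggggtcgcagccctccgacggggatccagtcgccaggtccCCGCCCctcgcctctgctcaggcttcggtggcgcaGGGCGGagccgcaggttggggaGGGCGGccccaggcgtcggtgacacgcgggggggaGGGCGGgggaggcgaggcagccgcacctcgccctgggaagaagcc
Jup: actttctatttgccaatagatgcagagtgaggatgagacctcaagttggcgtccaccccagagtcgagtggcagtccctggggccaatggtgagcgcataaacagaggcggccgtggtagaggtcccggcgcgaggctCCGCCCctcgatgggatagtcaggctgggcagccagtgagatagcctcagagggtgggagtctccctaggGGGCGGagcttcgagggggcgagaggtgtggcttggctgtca
The window of Dsp holds 4 GC boxes and that of Jup 2, and 32.7% of 32851 windows of this length in the same table hold at least 1. Neither window holds an E-box of the form CACCTG or CAGGTG, found in 17.2% of windows, or the letters TATAAA or TTTATA of a TATA box, found in 12.4%. These matches describe letters in the window, and no binding was measured.

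Perp, a tetraspan membrane protein of desmosomes in stratified epithelium and a target of p63 and p53, had 1427 and 1381 in B6, 1008 and 1018 in untreated and 1663 and 1490 in vitamin E-treated aortas. Untreated arrays were lowest, treated arrays highest, and no groups overlapped. Perp was 1.39-fold lower in the untreated ApoE-/- group than in B6 (log2 fold change −0.47, SE 0.07, adjusted p = 0.0019) and 1.55-fold higher after vitamin E (0.64, SE 0.07, adjusted p = 0.0018), and both calls were kept in each fit with 1 array left out. Treated aortas were 0.17 above B6 on the log2 scale (adjusted p = 0.10), which passed without vitamin E replicate 2 (0.25, adjusted p = 0.016) and with quantile normalization (0.24, adjusted p = 0.036), and was 0.013 with median centring (adjusted p = 0.92).

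**Figure D2:**
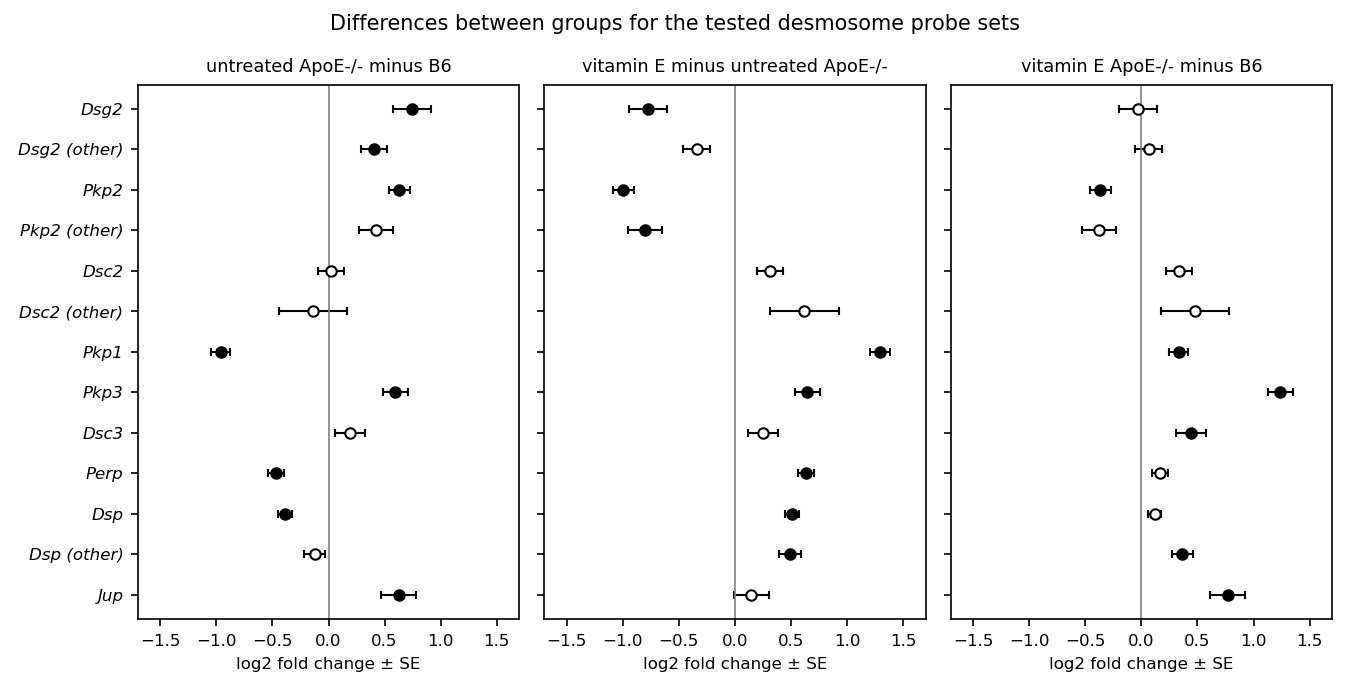
Log2 fold change with its standard error (limma) for the 13 tested desmosome probe sets in the 3 comparisons, where filled points are calls at an adjusted p under 0.05 and "(other)" marks a further probe set of the same gene. Pkp1 lies at −0.96 and 1.29 in the first and second panel, and Pkp2 at 0.63 and −1.0.

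By class, the 3 isoforms of heart and simple epithelium (Dsg2, Dsc2, Pkp2) gave 2 higher, 0 lower and 1 not called between untreated ApoE-/- and B6 aortas, and 0 higher, 2 lower and 1 not called after vitamin E. The 4 measured isoforms of stratified epithelium (Dsc3, Pkp1, Pkp3, Perp) gave 1 higher, 2 lower and 1 not called, then 3 higher, 0 lower and 1 not called. The shared proteins gave 1 higher (Jup) and 1 lower (Dsp), then 1 higher (Dsp) and 1 not called. Beside these counts, 21.7% of all tested probe sets were called higher and 19.1% lower in the first comparison. After vitamin E the shares were 8.52% and 6.99%. Within the stratified class, Pkp3 went against Pkp1 and Perp in untreated aortas and along with them after vitamin E.

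Markers of cardiac muscle moved with Dsg2 and Pkp2 between untreated ApoE-/- and B6 aortas and after vitamin E. All 10 were higher in the untreated ApoE-/- group than in B6, with a median log2 fold change of 1.09. After vitamin E, 9 of 10 were lower, with a median of −0.75. Between treated and B6 aortas, 4 were higher and 1 lower (median 0.09), while Pkp2 was lower (−0.37) and Dsg2 was not called. Myh6, the cardiac myosin heavy chain, had 6043 and 6542 in B6, 9003 and 9383 in untreated and 5728 and 5847 in vitamin E-treated aortas. Mybpc3, a cardiac thick filament protein, had the largest log2 fold change of the list against B6, 1.73 (adjusted p = 2.8e-05), and fell by 1.14 after vitamin E (adjusted p = 0.00065). Mesothelial genes had 2 higher and 0 lower of 5 tested in untreated than in B6 aortas, then 0 higher and 3 lower after vitamin E. Their summed signal intensity ranged from 1146 to 1161 in B6, 1423 to 1847 in untreated and 868 to 1032 in vitamin E-treated aortas, and Wt1 was under 100 on all arrays. Among all tested probe sets, 21.7% were called higher and 19.1% lower in untreated than in B6 aortas, and 8.52% and 6.99% after vitamin E. For treated against B6 aortas the shares were 21.9% and 19.2%. The part of cardiac muscle and mesothelial cells in the result for Dsg2 and Pkp2 was not tested.

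Markers of stratified epithelium moved with Pkp1, Dsp and Perp. Of the 7 tested markers of differentiated oesophageal epithelium, 6 were lower in the untreated ApoE-/- group than in B6, with a median log2 fold change of −0.86. After vitamin E, 7 were higher, with a median of 1.44. Between treated and B6 aortas, 4 of these markers were higher and 0 lower (median 0.26). Krt4, the keratin of suprabasal oesophageal epithelium, had 14073 and 13934 in B6, 7694 and 7728 in untreated and 11978 and 15510 in vitamin E-treated aortas. Of 8 basal markers, 5 were lower in untreated than in B6 aortas, 7 were higher after vitamin E and 7 were higher in treated than in B6 aortas. Their summed signal intensity ranged from 2988 to 3037 in B6, 2232 to 2235 in untreated and 4827 to 5144 in vitamin E-treated aortas. Krt15, a basal keratin, had 1007 and 950.5 in B6, 699 and 767 in untreated and 1551 and 1679 in vitamin E-treated aortas. All 8 skeletal muscle markers moved the same way, being lower in untreated aortas (median −0.99) and higher after vitamin E (median 1.24), with sums of 41972 to 42416 in B6, 23031 to 23072 in untreated and 45145 to 52593 in treated aortas. Liver markers also moved this way, with a median of −4.32 and 8 of 8 lower in untreated aortas, then a median of 0.86 and 7 of 8 higher after vitamin E, but all 8 were still lower in treated than in B6 aortas (median −3.41). Alb, serum albumin, had 6097 and 6107 in B6, 243 and 273 in untreated and 379 and 485 in vitamin E-treated aortas. The part of these tissues in the results for Pkp1, Dsp and Perp was not tested. Lung and airway markers had 0 higher and 3 lower of 6 tested in untreated than in B6 aortas (median −0.53), and 0 higher and 5 lower after vitamin E (median −2.04). Of 8 endothelial markers, 2 were higher and 1 lower in untreated than in B6 aortas, and 0 higher and 3 lower after vitamin E. Smooth muscle markers had 1 higher and 0 lower of 7, then 0 higher and 3 lower. Beside the counts of these lists, 21.7% of all tested probe sets were called higher and 19.1% lower in untreated than in B6 aortas. After vitamin E the shares were 8.52% and 6.99%, and in treated against B6 aortas 21.9% and 19.2%.

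The stepwise order of Pkp3, B6 below untreated below vitamin E-treated, was also that of Krt8 and Krt18, the paired keratins of simple epithelium. Krt8 had 508 and 444 in B6, 803 and 836 in untreated and 1037 and 1290 in vitamin E-treated aortas. Krt18 had 330 and 391, 724 and 695, and 1084 and 1080. Both passed the test at each step (log2 fold changes of 0.79 and 0.50 for Krt8, adjusted p = 0.0016 and 0.028, and of 0.98 and 0.61 for Krt18, adjusted p = 0.00021 and 0.0059). Of the 5 tested keratins of this list, 2 were higher in untreated than in B6 aortas, and 3 were higher and 1 lower after vitamin E. The lower one was Krt19 (log2 fold changes of 0.29, adjusted p = 0.077, and −0.50, adjusted p = 0.027). A broader list of simple epithelium, which shares Krt8, Krt18 and Krt19, had 3 higher and 0 lower of 7 tested, then 2 higher and 2 lower. In it Cldn3 rose and then fell (0.61, adjusted p = 0.0071, and −0.50, adjusted p = 0.037). The order of Krt8 and Krt18 was thus not that of simple epithelium genes in general. Genes of thymic epithelium had the same order, with 4 of 5 tested higher at each step and 5 of 5 higher in treated than in B6 aortas. Their summed signal intensity ranged from 118 to 149 in B6, 1983 to 2072 in untreated and 3330 to 3507 in vitamin E-treated aortas, with Foxn1 under 100 on all arrays. Over all tested probe sets, 21.7% were called higher and 19.1% lower in untreated than in B6 aortas, and 8.52% and 6.99% after vitamin E. In treated against B6 aortas these shares were 21.9% and 19.2%. Jup took only the first step of this order, as its untreated and treated arrays overlapped. The part of simple and thymic epithelium in the results for Pkp3 and Jup was not tested.

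**Figure D3:**
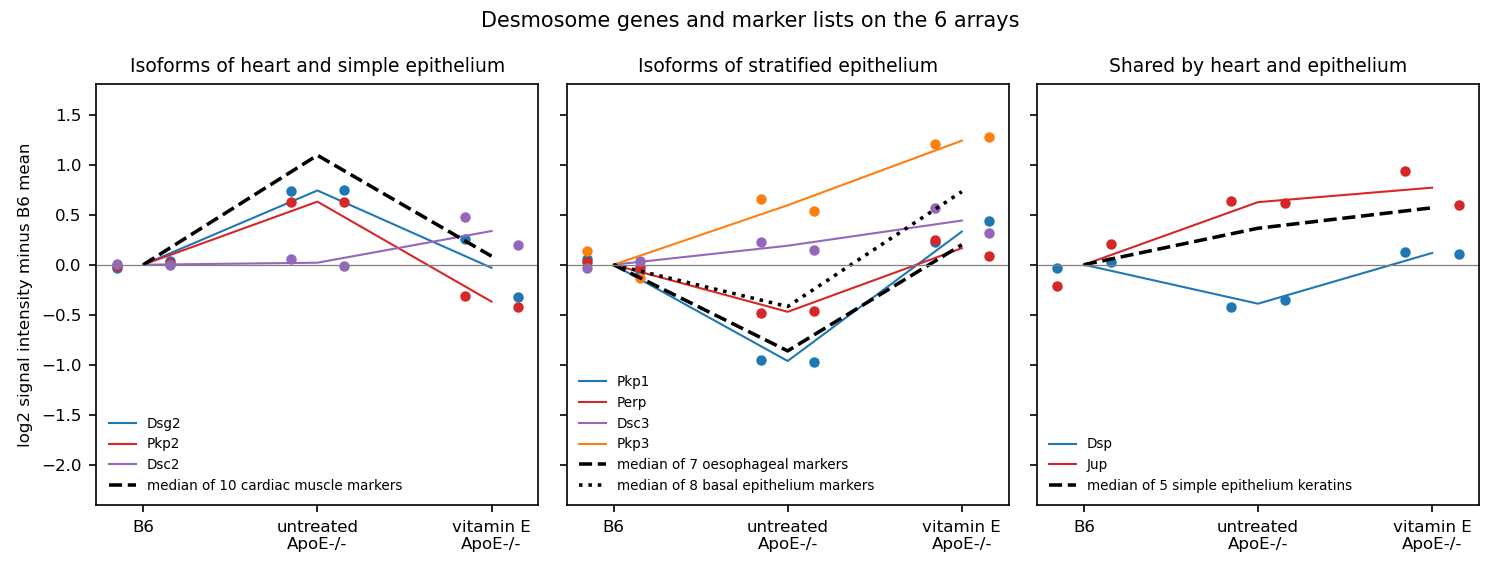
Log2 signal intensity minus the B6 mean, with 1 point per array for each desmosome gene and lines through the group means. Black lines give the median of marker lists, which for 10 cardiac muscle markers lies above B6 in untreated ApoE-/- aortas with Dsg2 and Pkp2, and for 7 oesophageal markers lies below B6 there with Pkp1 and Perp.

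Of 9 further desmosome genes, 7 had a probe set and 5 were tested, and between untreated ApoE-/- and B6 aortas 0 were higher, 4 were lower and 1 was not called, with a median log2 fold change of −0.74. After vitamin E, 3 were higher, 0 lower and 2 not called, with a median of 0.70. Against B6, the treated aortas had 1 higher and 1 lower. The shares of all tested probe sets called higher and lower were 21.7% and 19.1%, 8.52% and 6.99%, and 21.9% and 19.2% in this order. Dsc1, the desmocollin of the upper layers of stratified epithelium, had 455 and 394 in B6, 158 and 135 in untreated and 515 and 420 in vitamin E-treated aortas. It was 2.90-fold lower in untreated than in B6 aortas (log2 fold change −1.54, SE 0.14, adjusted p = 0.00019) and 3.18-fold higher after vitamin E (1.67, adjusted p = 0.00048), and treated and B6 arrays overlapped. The desmocollins thus differed among themselves, as Dsc2 and Dsc3 passed neither of these comparisons.

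Periplakin (Ppl) and envoplakin (Evpl), plakins of the cornified envelope that also associate with desmosomes, were lower in untreated aortas as well. Ppl had 523 and 485 in B6, 277 and 328 in untreated and 483 and 493 in vitamin E-treated aortas, with log2 fold changes of −0.74 (adjusted p = 0.0012) and 0.70 (adjusted p = 0.0053). Evpl had 296 and 219 in B6, 199 and 158 in untreated and 320 and 322 in treated aortas. Its log2 fold change was −0.52 (adjusted p = 0.044), lost without B6 replicate 1 (−0.30, adjusted p = 0.25) or untreated replicate 2 (−0.35, adjusted p = 0.22) and with moderation without a trend (0.064) or a fit of only these groups (0.050), and 0.86 after vitamin E (adjusted p = 0.017), lost without untreated replicate 2 (0.69, adjusted p = 0.11).

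Pkp4, a p120-related protein found in desmosomes and adherens junctions of many tissues, had 1015 and 1030 in B6, 590 and 615 in untreated and 698 and 662 in vitamin E-treated aortas. It was lower than B6 in both ApoE-/- groups (log2 fold changes −0.76, adjusted p = 0.00016, and −0.59, adjusted p = 0.00057), and the difference between these groups was 0.17 (adjusted p = 0.12). Corneodesmosin (Cdsn), the adhesive protein of modified desmosomes in cornified layers, had 209 and 225 in B6, 289 and 269 in untreated and 267 and 337 in treated aortas. Its differences from B6 were 0.36 (adjusted p = 0.059) and 0.47 (adjusted p = 0.025), the first passing without either vitamin E replicate (0.020 and 0.022) and the second lost without B6 replicate 1 (0.13), B6 replicate 2 (0.075) or vitamin E replicate 2 (0.088) and with median centring (0.32, adjusted p = 0.086). The first also passed in a fit of only these groups (0.022). The desmogleins Dsg1a and Dsg1b were under 100 on every array, with 33.7 to 98.1 and 18.0 to 70.3.

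**Figure D4:**
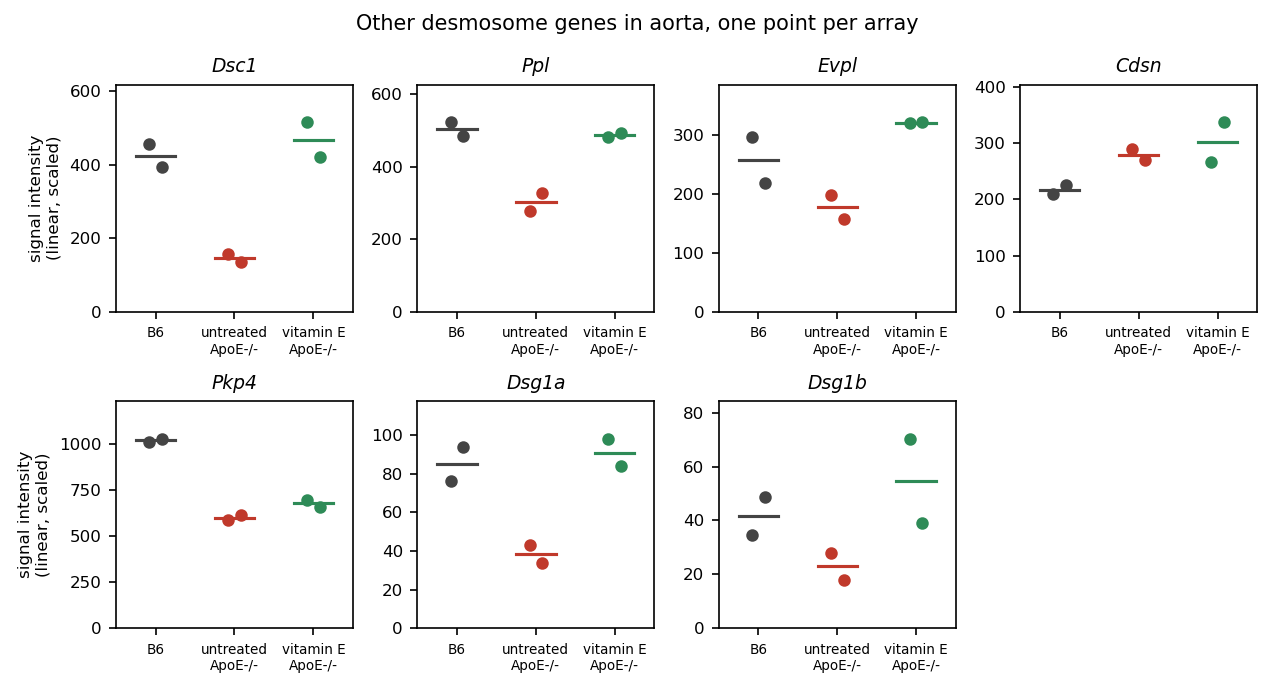
Signal intensity (linear scale, from 0) of 7 further desmosome genes, with 1 point per array and a bar at the mean of the 2 arrays of a group. Dsc1, Ppl and Evpl are lowest in untreated ApoE-/- aortas, whereas Pkp4 is lower in both ApoE-/- groups than in B6.

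Other junction genes were counted in the same fits. Over all tested probe sets, 21.7% were called higher and 19.1% lower between untreated ApoE-/- and B6 aortas. After vitamin E these shares were 8.52% and 6.99%. Of 7 tested genes of the adherens junction, 2 were higher and 2 lower in untreated than in B6 aortas, and 0 higher and 2 lower after vitamin E. Ctnnb1, beta-catenin, the closest relative of Jup among them, had 6048 and 5989 in B6, 4397 and 4347 in untreated and 4503 and 5422 in vitamin E-treated aortas, so that it was lower than B6 where Jup was higher (log2 fold change −0.46, adjusted p = 0.0065). Of 6 tested genes of the intercalated disc outside the desmosome, 0 were higher and 1 lower in untreated than in B6 aortas, and 0 higher and 2 lower after vitamin E, with the gap junction gene Gja1 at −0.06 (adjusted p = 0.49) and −0.32 (adjusted p = 0.018). The hemidesmosome, which anchors basal cells to matrix, had 1 higher and 2 lower of 6, then 2 higher and 2 lower, with the plakin Plec at −0.63 (adjusted p = 0.00023) and 0.29 (adjusted p = 0.019). Regulators of epithelial junction genes, of which 4 were tested, had 0 higher and 1 lower in untreated than in B6 aortas and 3 higher after vitamin E. Among them Grhl3, a grainyhead factor of epithelial barriers, had log2 fold changes of −0.67 (adjusted p = 0.065) and 1.16 (adjusted p = 0.021). The mean signal intensity of Grhl3 was 97.1 in B6, 62.7 in untreated and 135.8 in vitamin E-treated aortas. Only the treated group reached the filter, so the call of Grhl3 after vitamin E is not independent of the filter. The splicing factor Esrp1 had log2 fold changes of −0.63 (adjusted p = 0.0048) and 0.87 (adjusted p = 0.0040).

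Likeness was sought among 2732 tested probe sets with a single symbol that varied by at least 1 on the log2 scale. RIKEN, Gm and accession-like names were left out, and each gene is shown by its most alike probe set. Those whose log2 signal intensity over the 6 arrays was most like that of Dsp were Krt13 (Pearson r = 0.999), Serpinb5 (0.998), Psapl1 (0.994), Calml3 (0.993) and Crabp2 (0.993). For Pkp1 they were Sprr1a (0.996), Ttn (0.993), Mt4 (0.993), Mybpc2 (0.993) and Tnnt3 (0.993), and for Pkp2 Fhod3 (0.995), Tecrl (0.994), Sorbs2 (0.994), Mtarc1 (0.994) and Pcp4l1 (0.989). The 6 points share their arrays and fall into 3 groups, so these values describe the order of groups in the main.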

How the data were processed

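The 6 Affymetrix MG430 2.0 arrays, 2 per group, each carry RNA of 3 pooled aortas. Their signal intensities, linear and scaled within an array, are the GCOS output of the authors as deposited. Values under 20 were raised to 20 before taking log2. A probe set was tested where any group's mean reached 100, which gave 17909 of 45101 without the 64 controls of the array. Where only the group with the higher signal intensity reached 100, a call in that direction is not independent of this filter. Using limma 3.58.1 (R 4.3.3), group means were estimated from all 6 arrays together, with variances moderated along the signal intensity (residual degrees of freedom 3, prior 4.46). All p values were adjusted over every tested probe set (Benjamini-Hochberg). Of the probe sets, 34945 had 1 gene symbol, 932 several and 9160 none. Probe sets whose name ends in _s_at, among them those of Dsp, Jup and Pkp2, can match more than 1 transcript. Upstream sequences are from RefSeq (GRCm38.p6) and are shown for Dsp and Jup of the 10 members. Members on a chromosome that was left out of the search are not shown. The members and gene lists were chosen with earlier results of these data known. Named were all members, the list of other desmosome genes and, from each further list used, the gene with the highest mean signal intensity or the largest difference between untreated ApoE-/- and B6 aortas, with Krt18 among the keratins of simple epithelium. Krt19, Cldn3, Psmb11, Ly75, Col17a1 and Sprr3 are named in addition to qualify a list. Samples were grouped by their titles, and whether the 2 arrays of a group carry separate pools is not stated, so that p values measure the spread between these arrays, which may be technical. The number of arrays limits the precision. The procedure was tested on simulated data. Alternatives were quantile normalization, median centring, other floors and filters, no trend in the moderation, fits restricted to a pair of groups, a replicate block, leaving out each array and the methods' t-test.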

Additional observations from a re-analysis of the deposited data

How the results depend on the processing

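The calls of Pkp1, Pkp2, Dsp and Perp between untreated ApoE-/- and B6 and after vitamin E held in all 6 fits with 1 array left out and all 9 other settings of limma. Without a filter, 1 desmosome gene was called higher in the untreated ApoE-/- group than in B6, 1 lower after vitamin E and 1 higher in treated than in B6 aortas, with 4494, 949 and 4464 probe sets called in all. The calls lost were Dsg2, Jup and Pkp3 in the first, Dsg2 and Pkp3 in the second and Dsc3, Jup and Pkp1 in the third comparison. Lower after vitamin E was also 1, without Dsg2, with moderation without trend or a fit of only 2 groups (1700 probe sets called), and median centring, which shifts the 3 comparisons by 0.07, 0.08 and 0.15 on the log2 scale, left 2 higher in treated than in B6 aortas, where quantile normalization gave 5. Of the calls of a second probe set, no filter lost that of Dsg2 in the first comparison, those of Pkp2 and Dsp in the second and that of Dsp in the third.

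With 1 array left out, the desmosome genes called higher ranged from 2 to 4, 3 to 5 and 2 to 6 in the 3 comparisons, those called lower from 3 to 3, 1 to 2 and 0 to 2, and all probe sets called from 4337 to 8791, 808 to 3517 and 4353 to 7507. The methods' t-test on log2 values at the methods' thresholds called 0, 1 and 0 desmosome genes higher and 0 lower in each comparison, with 768, 179 and 582 probe sets, and on linear values 0, 0 and 1 higher and 0 lower, with 772, 176 and 585. After Benjamini-Hochberg, it called 2 genes higher in untreated than in B6 aortas, and 0 higher and 0 lower in the other comparisons, with 2156, 0 and 67 probe sets. For these moves the cause was not tested.

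Differences that were not called changed sign as follows. Dsc2 in untreated against B6 aortas was −0.040 with quantile normalization, −0.049 with median centring, and −0.016 to 0.056 without untreated replicate 1 or 2. In treated against B6 aortas, median centring gave Dsp −0.036 and Dsc1 −0.019, leaving out vitamin E replicate 1 or 2 gave Dsc1 −0.013 and 0.28 and Dsg2 −0.32 and 0.26, leaving out B6 replicate 2 gave Dsg2 0.0035, and leaving out 1 array gave Ppl −0.10 to 0.0098. After vitamin E, Jup was −0.025 and 0.31 without vitamin E replicate 1 or 2, and Cdsn was 0.27 and −0.063.

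The numbers of the arrays did not pair them (correlations of deviations 0.05, 0.05 and −0.10). With the replicate block, 4 and 3, 4 and 2, and 4 and 1 desmosome genes were called higher and lower, with 6887, 2185 and 6991 probe sets called.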
